A study of Mus musculus with 12 samples.

Results

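The genes described here are the class 5 and class 6 semaphorins Sema5a, Sema5b, Sema6a, Sema6b, Sema6c and Sema6d, and the plexins Plxna1, Plxna3 and Plxnb3. They were taken by name, as 9 of the 45777 gene identifiers listed for each library and 9 of the 29 semaphorin and plexin genes among them. They were measured by RNA-seq in 12 libraries of ventral spinal cord of E12.5 embryos. The libraries formed 4 groups of 3, brachial Isl2 +/- (Het), brachial Isl2 KO, lumbar Isl2 +/- and lumbar Isl2 KO. Isl2 encodes a LIM-homeodomain transcription factor of postmitotic motor neurons (MNs). The KO allele replaces exons of Isl2 with a neomycin cassette, and the controls carried one copy of the mutation, so every embryo lacked at least one intact allele and no wild-type library was analysed here. Tissue of all groups was cut to the region around Hb9::GFP, a reporter that marks MNs, so the libraries hold MNs together with the cells around them. The study states 3 animals per genotype, and the labels do not say which brachial and lumbar libraries came from the same embryo.

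Semaphorins are guidance proteins, and class 5 and class 6 members are anchored in the membrane of the cell that makes them. Class 5 proteins carry thrombospondin repeats outside the cell, and they can attract or repel axons. Plexins are their receptors: on binding, the intracellular part of a plexin acts on small GTPases and the growth cone turns or collapses. Plexin-A1 and plexin-A3 are receptors for class 5 semaphorins in the retina, plexin-A1 also binds Sema6c and Sema6d, and plexin-B3 is a receptor for Sema5a. In the embryonic spinal cord, Sema6c and Sema6d act with plexin-A1 in the sorting of proprioceptive sensory axons.

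Values are TPM, the transcript share of a library scaled to transcript length, rescaled between libraries by size factors. The libraries held 4.48 to 6.64 Gb of aligned bases, 22983 to 24191 genes above 0, and 23.7% to 38.2% of their TPM in small RNAs. Their labelled level was borne out by Hox genes, since Hoxc8 was lower (log2 difference −3.32) and Hoxd10 higher (10.6) in lumbar cord. All 10 MN markers were above 0 in every library, with sums of 204 to 323 TPM. The targeted gene, Isl2, stood at 8.73, 8.33 and 9.72 TPM in brachial Het against 6.04, 7.28 and 4.47 in brachial KO, and at 10.3, 8.43 and 9.43 in lumbar Het against 7.33, 6.53 and 8.24 in lumbar KO. Every KO library was below every Het library of its level (exact permutation test, two-sided, p = 0.1 at each level, the smallest that 3 against 3 libraries allow). Isl2 was not lost from the KO values, which cover the whole gene, including sequence outside the replaced exons. Brachial KO 3 had the least depth (4.48 Gb) and brachial KO 2 the lowest small-RNA share (23.7%), and both stand apart below.

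Of the 9 genes, 8 were expressed at both levels and in both genotypes, and Plxnb3 was at or near 0. In brachial Het cord, Sema6c was the most abundant at 30.9 ± 3.36 TPM (mean ± SD, n = 3). Plxna3 followed at 27.8 ± 0.820, Plxna1 at 27.6 ± 3.77 and Sema6d at 24.5 ± 3.01. Each of these 4 overlapped its neighbour in the order, so their order was not separated by the spread between libraries. Sema6b came next at 19.7 ± 0.971 TPM and Sema5b at 13.1 ± 1.86, both apart from their neighbours. Sema5a (5.75 ± 0.738 TPM) and Sema6a (5.60 ± 0.784 TPM) overlapped each other at the low end. The class 6 genes thus ran from 5.60 to 30.9 TPM, with Sema6c and Sema6d near Plxna1 and Plxna3 and Sema6a below all of them.

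The order in the other groups was similar, apart from a few changes of place. In lumbar Het cord Sema5b (16.1 ± 1.42 TPM) stood above Sema6b (14.2 ± 2.95), although their ranges overlapped, and Sema6a (6.20 ± 0.838) stood above Sema5a (3.99 ± 0.791) with no overlap. The same held in lumbar KO cord, where Sema5b was at 17.7 ± 2.13, Sema6b at 13.7 ± 3.01, Sema6a at 7.17 ± 1.67 and Sema5a at 3.99 ± 0.577 TPM. In brachial KO cord Plxna1 had the highest mean, 39.9 ± 12.52 TPM, and its range overlapped that of Plxna3 (35.7 ± 6.24). The spread between libraries was not even across genes. Sema6a varied most in brachial KO (SD 50.8% of the mean) and Sema6d least in lumbar KO (1.01%).

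Plxnb3, the plexin-B receptor of Sema5a, was listed at 0 in the 3 brachial Het libraries. It was at 0.0175, 0.0193 and 0.0126 TPM in brachial KO, at 0.0204, 0.0423 and 0 in lumbar Het and at 0, 0.0332 and 0.0177 in lumbar KO. These values lie below the mean of 0.5 TPM required for testing, and no difference is read from them. The plot of TPM by library shows the 8 expressed genes and Plxnb3 side by side.

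**Figure D1:**
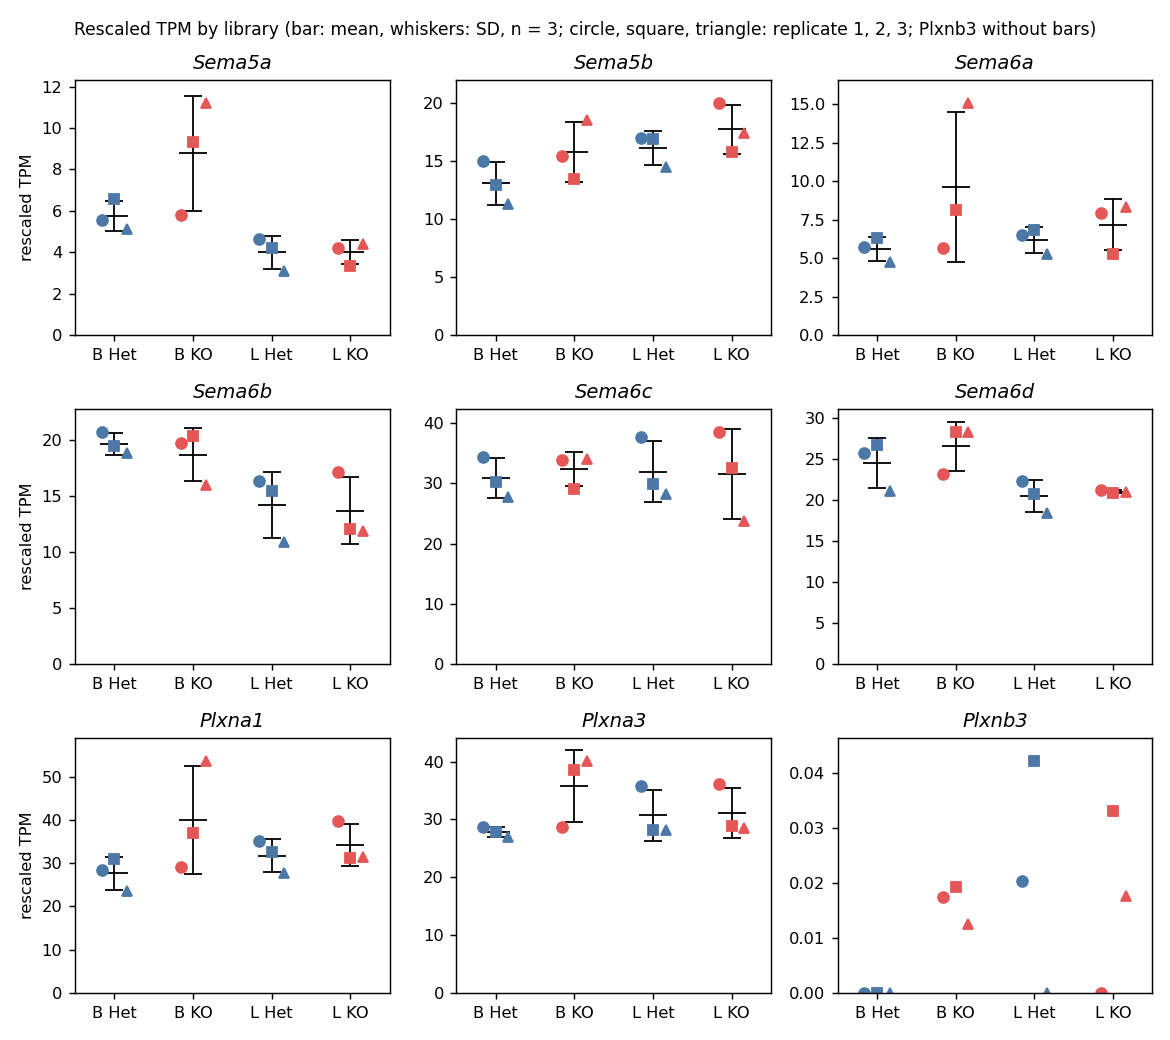
Rescaled TPM (vertical axes, each from 0) of the 9 genes in brachial (B) and lumbar (L) Het (blue) and KO (red) libraries; points are single libraries, and bars with whiskers are the mean and SD of 3. Sema5a is lower in all 6 lumbar than in all 6 brachial libraries, brachial KO 2 and 3 lie above the Het libraries for Sema5a, Sema6a, Plxna1 and Plxna3, and Plxnb3 stays at or below 0.0423 TPM.

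The genes differ widely in span and in annotated transcripts (coordinates as deposited, mm10, the same for all 9 in RefSeq GRCm38.p6). Sema5a lies at chr15:32244813-32696341 on the plus strand and Sema6d at chr2:124089943-124667789 on the plus strand, spans of 452 and 578 kb. Plxna1 (chr6:89316313-89362613, minus strand) covers 46.3 kb, and Plxna3 (chrX:74328290-74344689, plus strand) 16.4 kb. RefSeq lists 1 transcript for Plxna1, 5 for Sema5a, 3 for Sema6b, 38 for Sema6d and 39 for Sema6c. Coverage, the mean depth per base that was deposited beside TPM, ranked the genes differently. In brachial Het cord rescaled coverage was 81.6 ± 11.1 for Plxna1 and 3.25 ± 0.363 for Sema6d, although their TPM values overlapped. The ratio of coverage to FPKM is a constant of the library, its aligned bases, where a gene has a single transcript. Plxna1 was at 99.9% to 100.1% of this constant and Sema6d at 4.41% to 4.89%. So coverage is used here only to compare one gene between libraries, never to compare genes.

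The comparison of levels asked how expression differs between the cord that supplies the forelimb and the cord that supplies the hindlimb. Of the 8 genes tested, 3 were lower in lumbar cord and 0 higher (limma over all 12 libraries with genotype as a term, adjusted p under 0.05). Over all 16706 genes tested, 9.62% were lower and 8.91% higher by this rule. The 3 genes, Sema5a, Sema6b and Sema6d, are ligands, as are 6 of the 8 genes tested. The only plexins tested, Plxna1 and Plxna3, were not called. In bulk tissue, fewer cells of a type and less RNA per cell cannot be told apart.

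Sema5a, the class 5 ligand that can attract or repel axons, differed most. It stood at 5.56, 6.56 and 5.12 TPM in brachial Het and 5.78, 9.32 and 11.2 in brachial KO, against 4.65, 4.21 and 3.12 in lumbar Het and 4.22, 3.34 and 4.42 in lumbar KO. All 6 lumbar libraries were below all 6 brachial libraries, a separation in this direction that 4.66% of all genes tested showed. The means were 3.99 ± 0.619 and 7.26 ± 2.45 TPM (n = 6 each). The difference was −0.80 on the log2 scale (SE 0.175, limma adjusted p = 0.00800), and the exact permutation test over libraries gave p = 0.00216, two-sided. Both tests treat the libraries as independent, although brachial and lumbar libraries may share embryos. The difference was −0.53 in Het libraries and −1.07 in KO libraries alone, with limma adjusted p = 0.156 and 0.0629. The ranges were apart in both (exact permutation p = 0.1, the smallest possible). Without brachial KO 2 and 3 the difference was −0.53 (adjusted p = 0.0317), so its size, though not its call, moved with those libraries.

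Sema6b is a repellent class 6 ligand that signals through A-type plexins. It stood at 20.7, 19.5 and 18.8 TPM in brachial Het and 19.7, 20.4 and 16.01 in brachial KO, against 16.3, 15.5 and 10.9 in lumbar Het and 17.2, 12.1 and 11.9 in lumbar KO. Only brachial KO 3 reached down into the lumbar range. The difference was −0.47 (SE 0.118, limma adjusted p = 0.0153, exact permutation p = 0.00649). It was close to this in Het (−0.49) and KO (−0.46) libraries, and −0.51 without brachial KO 2 and 3 (adjusted p = 0.0359).

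Sema6d, one of the ligands of plexin-A1, stood at 25.7, 26.7 and 21.1 TPM in brachial Het and 23.1, 28.3 and 28.3 in brachial KO. It stood at 22.3, 20.7 and 18.4 in lumbar Het and 21.2, 20.8 and 21.0 in lumbar KO, and the levels overlapped only through brachial Het 3, which was below lumbar Het 1 and lumbar KO 1. The difference was −0.29 (SE 0.0762, limma adjusted p = 0.0185, exact permutation p = 0.00649). This call was lost without brachial KO 2 and 3 (−0.22, adjusted p = 0.11) and with coverage in place of TPM (−0.26, adjusted p = 0.10).

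Promoter windows of these 3 ligands are shown because they are the genes that fell in lumbar cord. Each holds the 250 bases before a RefSeq start on the gene's own strand (GRCm38.p6), at chr15:32244563-32244812 (plus strand) for Sema5a, chr17:56140344-56140593 (minus strand) for Sema6b and chr2:124089719-124089968 (plus strand) for Sema6d. Capitals mark TAAT or its reverse complement ATTA, the core letters of homeodomain sites, on either strand.
Sema5a: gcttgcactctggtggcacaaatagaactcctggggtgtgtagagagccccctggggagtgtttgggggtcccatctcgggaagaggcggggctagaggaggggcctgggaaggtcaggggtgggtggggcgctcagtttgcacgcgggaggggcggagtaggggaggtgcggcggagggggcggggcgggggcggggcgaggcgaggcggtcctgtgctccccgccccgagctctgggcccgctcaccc
Sema6b: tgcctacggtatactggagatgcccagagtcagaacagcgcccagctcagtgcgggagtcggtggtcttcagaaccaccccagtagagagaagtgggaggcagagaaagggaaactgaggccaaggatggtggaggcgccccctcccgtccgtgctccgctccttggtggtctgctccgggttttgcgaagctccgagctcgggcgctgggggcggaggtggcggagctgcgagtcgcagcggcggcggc
Sema6d: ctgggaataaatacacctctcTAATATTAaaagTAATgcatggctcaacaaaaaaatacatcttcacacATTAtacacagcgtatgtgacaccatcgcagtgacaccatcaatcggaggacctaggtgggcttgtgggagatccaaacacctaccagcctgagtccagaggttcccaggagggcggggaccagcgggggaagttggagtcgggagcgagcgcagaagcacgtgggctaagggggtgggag
Sema6d held 4 matches, with first bases 229, 225, 217 and 181 bases before the start, and Sema5a and Sema6b held 0. A second RefSeq start of Sema6d (window chr2:124653331-124653580, not shown) held 1 match, and a second start of Sema6b (chr17:56133853-56134102, not shown) held 0. At least one match was present in 54.9% of the 32851 promoters of the RefSeq table. The window of Sema5a was 72.0% G and C with 17 CpG dinucleotides, that of Sema6b 66.0% with 20, and that of Sema6d 52.4% with 9, against medians of 52.4% and 6 over all promoters. The match is one of letters only and names no bound site.

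The other 5 genes tested did not differ between levels at adjusted p under 0.05. Sema5b, the second class 5 ligand, had the nearest value, at 11.3 to 18.5 TPM (median 14.2) in 6 brachial and 14.5 to 20.0 (median 16.9) in 6 lumbar libraries. Its difference was 0.24 (SE 0.0975, limma adjusted p = 0.108), opposite in sign to that of Sema5a, and it was 0.30 with adjusted p = 0.0376 when brachial KO 3 was left out. For Sema6c the difference was −0.01 (95% interval −0.25 to 0.24), and for Sema6a −0.09 (−0.55 to 0.37). The plexins were close to 0, Plxna1 at 0.01 (−0.30 to 0.32) and Plxna3 at −0.03 (−0.26 to 0.20). Without brachial KO 2 and 3 the values were 0.20 for Sema6a, 0.21 for Plxna1 and 0.13 for Plxna3 (adjusted p = 0.434, 0.231 and 0.405). The intervals are drawn in the plot of lumbar minus brachial differences.

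**Figure D2:**
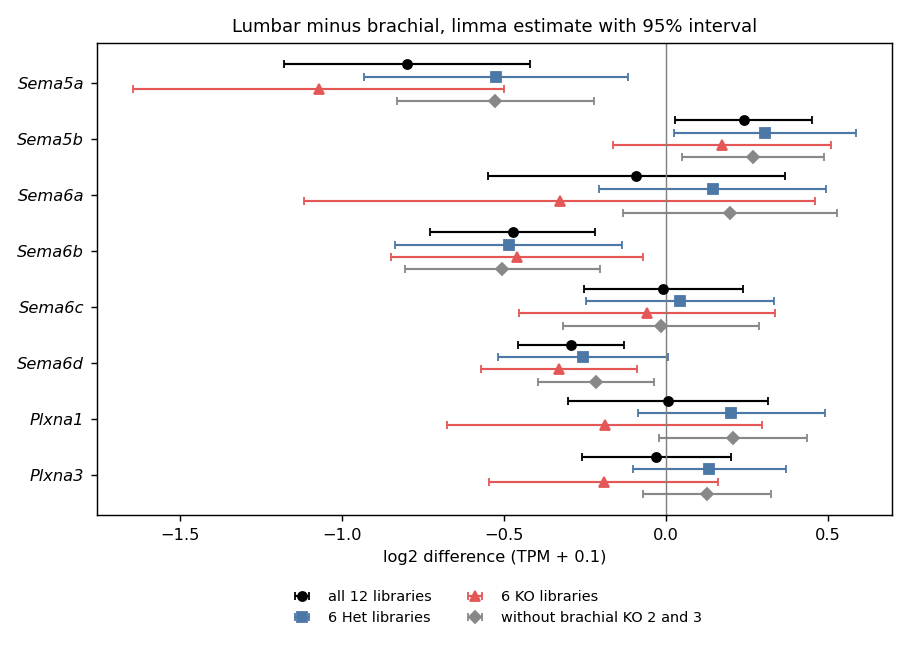
Lumbar minus brachial log2 difference (horizontal axis, log2 of rescaled TPM + 0.1) with 95% limma intervals for 8 genes, over all 12 libraries (black), 6 Het (blue), 6 KO (red) and without brachial KO 2 and 3 (grey). Sema5a, Sema6b and Sema6d lie below 0 in all 4 fits, while Sema6a, Plxna1 and Plxna3 lie above 0 in Het and below 0 in KO libraries.

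Markers of other cell types also differed between levels. The summed level of 6 endothelial markers was 65.3 to 89.4 TPM in brachial and 54.5 to 67.3 TPM in lumbar libraries, with 4 of 6 called lower and none of them at 0. For 5 microglial markers it was 17.4 to 26.3 against 7.49 to 16.04 TPM, with 4 called lower. Of 8 progenitor markers 5 were called higher and 2 lower, and their sums overlapped at 2364 to 3282 and 2446 to 2920 TPM. Of 6 ventral interneuron markers 3 were higher (55.7 to 76.1 against 71.6 to 96.5 TPM), and of 10 MN markers 1, Slc5a7, was lower (243 to 291 against 204 to 323 TPM). Of 5 Schwann and crest markers tested 2 were lower (1438 to 2340 against 1186 to 1705 TPM), of which Fabp7 is also 1 of the 2 lower progenitor markers. Lower too were 2 of 3 mesenchymal (7.63 to 10.9 against 6.56 to 8.86 TPM) and 1 of 6 pan-neuronal ones. Floor plate, sensory neuron, dorsal interneuron, erythroid and skeletal muscle markers gave 0 calls. The part of these differences in the values of Sema5a, Sema6b and Sema6d was not tested.

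The comparison of genotypes asked which genes change when Isl2 is lost. In brachial cord 1 of the 8 genes tested, Sema5a, passed the threshold of the study (a log2 fold change beyond 0.5 with an unadjusted p under 0.05) as higher, and 0 as lower. Of all 16775 genes tested, 2.21% passed as higher and 0.87% as lower. The number with an unadjusted p under 0.05 was 2 of 8, Sema5a and Plxna3, against 13.9% of all genes, and 0 of 8 had an adjusted p under 0.05, against 0.00596%. None of the 8 had KO and Het ranges apart, which 9.68% of all genes showed as higher and 10.4% as lower. KO was above Het in 7 of the 8 (48% of all genes), and their median log2 difference was 0.31, against −0.01 over all genes. Without brachial KO 2 and 3, 7 of the 8 were above 0 (8689 of 16652 genes tested), and their median was 0.034 (0.01 over all genes). These were not the same 7 genes, since Sema6b turned above 0 and Sema6d below 0.

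Sema5a was higher by 0.56 on the log2 scale in brachial KO (SE 0.238, limma p = 0.0491, adjusted p = 0.357), and the exact permutation test gave p = 0.2. Its values, 5.78, 9.32 and 11.2 TPM, placed KO 2 and KO 3 above all Het libraries and KO 1 among them. The call was lost under 11 of 18 other settings. With one library left out the difference ranged from 0.35 without KO 3 to 0.83 without KO 1. It was 0.01 with KO 2 and 3 both left out, a fit that keeps 1 KO library and assumes that it varies like the Het libraries. The receptors showed the same pattern of libraries. Plxna1 stood at 29.1, 36.9 and 53.7 TPM in KO against 28.3, 31.0 and 23.5 in Het, and the difference was 0.49 (SE 0.213, limma adjusted p = 0.357, exact permutation p = 0.2). It ranged from 0.26 without KO 3 to 0.70 without KO 1. Plxna3 stood at 28.6, 38.5 and 40.1 against 28.7, 27.8 and 27.0, and the difference was 0.35 (SE 0.129, limma adjusted p = 0.357, exact permutation p = 0.2).

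Sema6a, which signals through other A-type plexins, stood at 5.67, 8.10 and 15.1 TPM in brachial KO against 5.73, 6.31 and 4.76 in Het. KO 3 was again the highest, and the difference of 0.66 (SE 0.322, limma adjusted p = 0.370, exact permutation p = 0.3) had the widest interval of the 8. It ranged from 0.28 without KO 3 to 0.98 without KO 1, and was 0.026 without KO 2 and 3. Sema5b stood at 15.5, 13.4 and 18.5 TPM in KO against 14.97, 12.96 and 11.3 in Het (0.27, SE 0.150, limma adjusted p = 0.404), and the difference ranged from 0.15 without KO 3 to 0.38 without KO 2. The remaining ligands differed little, Sema6d by 0.12 (95% interval −0.17 to 0.40), Sema6c by 0.07 (−0.17 to 0.32) and Sema6b by −0.08 (−0.34 to 0.18). In the same fit, 1 of 8 progenitor and 1 of 6 ventral interneuron markers passed as higher, and 0 of the MN, endothelial or microglial markers passed.

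The deviation of brachial KO 2 and 3 ran with transcript length. Over 12947 protein-coding genes in 4 equal groups by longest annotated transcript, the median log2 deviation from the brachial Het mean was −0.175 in KO 2 and −0.235 in KO 3 for the shortest transcripts. For the longest, from 4945 bases up, it was 0.200 and 0.280, against 0.049 in KO 1 and −0.054 to 0.050 in the Het libraries. Sema5a (10809 bases), Plxna1 (9034), Plxna3 (6943), Sema6a (6856), Sema6d (6444) and Sema6c (5095) are in the longest group, and Sema5b (4646) and Sema6b (3736) in the next. In KO 3 the deviation was 0.95 for Sema5a, 1.41 for Sema6a, 0.96 for Plxna1 and 0.53 for Plxna3, above the median of their length group. It was 0.21 for Sema6d and 0.14 for Sema6c, below it. The part of transcript length in these values was not tested.

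**Figure D3:**
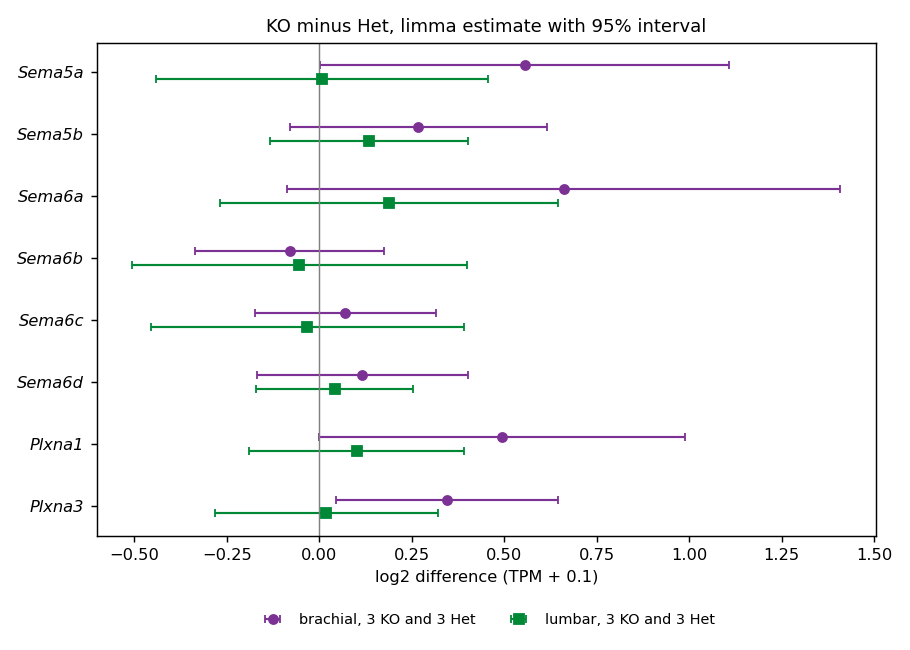
KO minus Het log2 difference (horizontal axis, log2 of rescaled TPM + 0.1) with 95% limma intervals for 8 genes in brachial (purple circles) and lumbar (green squares) libraries, 3 against 3 each. Brachial values lie between −0.08 and 0.66, and the intervals of Sema5a and Plxna3 lie just above 0, whereas every lumbar interval crosses 0.

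**Figure D4:**
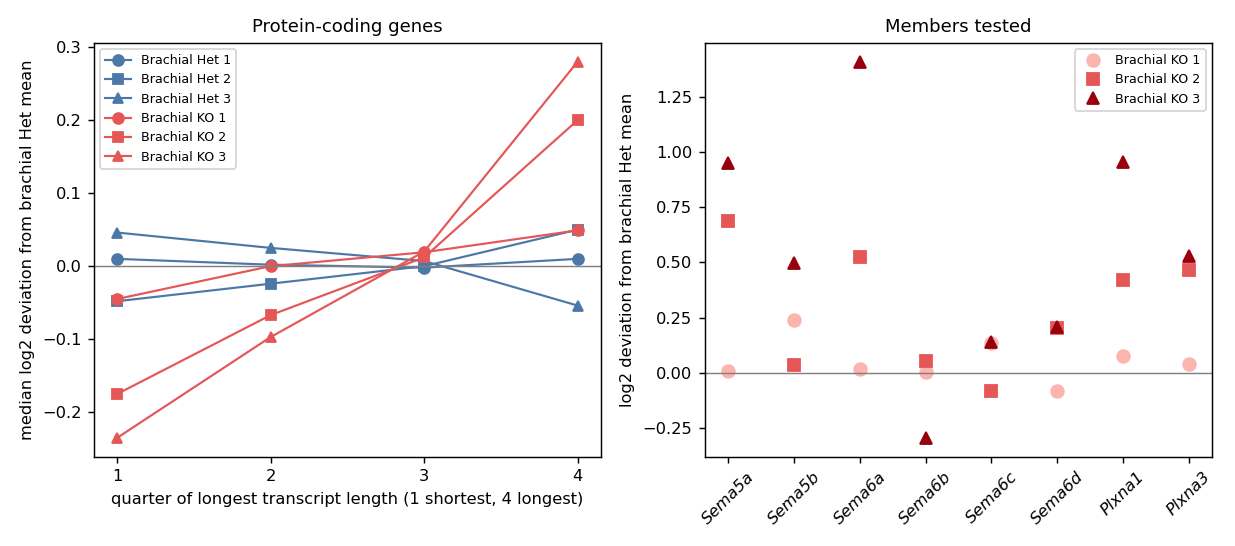
Left, median log2 deviation of protein-coding genes from the brachial Het mean (vertical axis) in 4 groups of transcript length, shortest to longest, in the 6 brachial libraries; right, the same deviation of each of 8 genes in the 3 brachial KO libraries. KO 2 and KO 3 rise with length from −0.175 and −0.235 to 0.200 and 0.280, and their Sema5a, Sema6a, Plxna1 and Plxna3 values lie above 0 while those of KO 1 lie near 0.

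In lumbar cord 0 of the 8 genes passed the threshold of the study in either direction, where 0.98% of the 16629 genes tested passed as higher and 0.794% as lower. None had an unadjusted p under 0.05 by limma (4.86% of all genes), an adjusted p under 0.05 (0% of all genes), or ranges apart (4.42% higher and 5.52% lower over all genes). The log2 differences lay between −0.05 for Sema6b and 0.19 for Sema6a, which ranged from 0.067 without KO 3 to 0.39 without KO 2. Sema5a stood at 4.22, 3.34 and 4.42 TPM in KO against 4.65, 4.21 and 3.12 in Het, a difference of 0.01 (95% interval −0.44 to 0.46). By in situ hybridization, the study reports Sema5a enriched in gluteus motor pools and reduced in Isl2 KO. Bulk values of the whole dissection do not resolve single motor pools, so they do not test that result. Plxna1 stood at 39.7, 31.1 and 31.5 against 35.0, 32.6 and 27.6, a difference of 0.10 (−0.19 to 0.39). Plxna3 stood at 36.1, 28.8 and 28.5 against 35.8, 28.1 and 28.2, so in both genotypes library 1 was the high one. Sema6c ranged from 23.7 to 38.6 TPM in KO and from 28.2 to 37.7 in Het. The upper bound of the 95% interval was 0.64 for Sema6a, the widest, and 0.25 for Sema6d, the narrowest.

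The difference of the genotype effects between levels was tested in one fit over the 12 libraries. It was called for 0 of the 8 genes (adjusted p under 0.05, 0% of 16706 genes) and none had an unadjusted p under 0.05 by limma (4.42% of all genes). It was −0.55 for Sema5a (SE 0.327, limma adjusted p = 0.812) and −0.33 for Plxna3 (SE 0.198, limma adjusted p = 0.812). With one library left out, it ranged for Sema5a from −0.82 without brachial KO 1 to −0.35 without brachial KO 3, and for Plxna3 from −0.48 without brachial KO 1 to −0.21 without lumbar Het 1. Without brachial KO 2 and 3 it was −0.0054 for Sema5a and −0.022 for Plxna3. A brachial genotype effect that differs from the lumbar one was therefore not shown for any of these genes.

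The wider pathway was described with a list of 79 other semaphorins, plexins, co-receptors and intracellular partners, of which 75 were tested. In brachial KO 7 of 75 passed the threshold of the study as higher and 0 as lower (2.21% and 0.87% of all genes), and 58 of 75 differences were above 0 (48% of all genes), with a median of 0.15 against −0.01. Without brachial KO 2 and 3, whose deviation ran with transcript length, 1 of 75 passed as higher and 0 as lower (0.781% and 1.07% of all genes), 55 of 75 were above 0, and the median was 0.059. The part of those libraries' deviation in the values of the list was not tested. Of the 7, the 4 of smallest p were Plxna4 (0.58, a receptor of class 6 semaphorins), Sema4g (0.63), Rras (0.92, a small GTPase that plexins switch off) and Mical3 (0.56, a MICAL family protein). None passed at adjusted p under 0.05 by limma. In lumbar KO 0 passed as higher and 1 as lower (0.98% and 0.794% of all genes), Sema3e (−0.80, limma adjusted p = 0.979), a secreted ligand of plexin-D1, and the median was −0.04 against −0.0087 over all genes.

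Between levels 7 of the 75 were higher and 11 lower in lumbar cord at adjusted p under 0.05 (8.91% and 9.62% of all genes), with a median of −0.07 against 0.01 over all genes. Higher in lumbar cord were Met (0.62, a receptor tyrosine kinase that associates with B-type plexins), Nrp1 (0.52, a co-receptor of secreted semaphorins), Rnd3 (0.57, a small GTPase that binds plexins) and Chl1 (0.51, an adhesion molecule of the L1 family). Lower were the secreted ligands Sema3d (−1.08), Sema3a (−0.65) and Sema3e (−0.87), and Kdr (−0.36), an endothelial receptor that is also among the endothelial markers above. Nrp2, the other neuropilin co-receptor, was also lower (−0.41, limma adjusted p = 0.0121). Another secreted ligand, Sema3f, was higher (0.32, limma adjusted p = 0.0237). Nrp2 and Sema3f are named outside the rule, after their values were seen. No gene of the list was called in the test of the difference of genotype effects, and 10 of 75 had an unadjusted p under 0.05 by limma (4.42% of all genes), or 1 of 75 without brachial KO 2 and 3 (1.51% of all genes). The level calls without those libraries were 6 higher and 6 lower of 75 (5.57% and 6.49% of all genes).

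As a description over the 12 libraries, the members were compared with the 11689 protein-coding genes with a mean of at least 2 TPM. Pearson r was 0.977 for Sema5a with Shank2. The highest r for Sema6a was 0.989 with Rnf24 and 0.988 with Faxc, and for Plxna1 0.979 with Clasp1 and with Ptch1. Plxna3 was most like Map6 (0.945) and Dync1h1 (0.930), Sema5b like Notch1 (0.934) and Ubn1 (0.925), and Sema6b like Adcy3 (0.964) and Fbln2 (0.958). Sema6c was most like Zfp503 (0.943) and Nr1h2 (0.929), and Sema6d like Fermt2 (0.955) and Amigo1 (0.952). Among the members themselves, r was above 0 for 25 of 28 pairs and highest for Sema5a with Sema6d (0.926) and for Sema6a with Plxna1 (0.923). These values share the libraries, including brachial KO 2 and 3, and their depth.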

How the data were processed

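The deposited tables hold, for each of the 12 libraries and each gene, values made by the authors with StringTie 2.1.3b after Trimmomatic 0.38 and alignment to mm10 with HISAT2 2.1.0 and Bowtie2 2.3.4.1, per the submitters' processing notes, which also name FastQC 0.11.7. Total RNA was depleted of ribosomal RNA and libraries were stranded. TPM was deposited as length-scaled shares of one fixed total per library, FPKM was deposited from the same run, and the deposited coverage signal is the mean depth per base. Only coverage and TPM are reported, and FPKM served to read depth (aligned bases) from the ratio of coverage to FPKM. No counts were analysed, so DESeq2, which the study used, was not run and counting error is unknown.

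Symbols came from RefSeq GRCm38.p6 (45679 of 45777 identifiers, 96.2% with identical coordinates), and the lines of 6 repeated identifiers were summed. TPM was divided by median-of-ratios size factors (0.893 to 1.25). Then limma 3.58.1 (R 4.3.3; lmFit, eBayes with trend) was run on log2(value + 0.1) over genes with a mean of at least 0.5, with Benjamini-Hochberg adjustment over all genes tested. Fold changes on this scale understate changes of low genes. Genotypes were compared within each level, levels over all libraries with genotype as a term, and the interaction over 4 group means. Single genes were also tested by exact permutation, two-sided. Python 3.11.15 (pandas 2.3.3, matplotlib 3.10.9) served for reading and plotting. The fits were tested on simulated data.

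Samples were grouped by the tissue and genotype labels. Replicate numbers were not used to pair libraries: deviations of same-numbered libraries from their group means correlated between −0.214 and 0.338. For differently numbered libraries the correlations ran from −0.311 to 0.26. Where brachial and lumbar libraries share an embryo, the p-values between levels treat them as independent. The named genes are the 9 members, Isl2, up to 4 genes of smallest p per direction among those of the pathway list that were called, and the 2 genes most like each member, of which 1 for Sema5a is not reported here. The members and all lists were chosen with earlier results of these data known. Transcript lengths were those of the longest GENCODE transcript (97.5% of protein-coding genes matched). Promoter windows were read for 7 of the 9 genes, with chromosome 18, where Sema6a lies, left out. The alternatives concerned pseudocount, filter, scaling, unit, variance trend, pairing and libraries left out.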

Additional observations from a re-analysis of the deposited data

Results flagged for a closer look

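One value stood far from the other libraries of its level. Sema6a was at 15.1 TPM in brachial KO 3, and the next highest of the 6 brachial libraries was at 8.10 TPM (brachial KO 2). The gap was 0.676 of the range of the 6 libraries, beyond the critical value of Dixon's test. Chance alone gives such a value in about 1 in 20 sets of libraries, and 32 ends of 16 sets were examined. Brachial KO 3 was also the highest brachial library for Sema5a, Sema5b, Plxna1 and Plxna3, and the lowest for Sema6b. For Sema6d it was level with brachial KO 2, both at 28.3 TPM.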

How the results depend on the processing

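The number of members past the threshold of the study as higher in brachial KO, 1 in the main setting, was 0 with a pseudocount of 1, no filter, quantile normalization, size factors from protein-coding genes, coverage in place of TPM, eBayes without trend, or without brachial KO 2 and 3 together. It was 4 with TPM as deposited and 2 with all 12 libraries in one fit, and 0 to 3 over fits leaving out one library (3 without KO 1). The removal of brachial KO 2 and 3 was chosen after seeing the data, for the depth of KO 3 and the small-RNA share of KO 2, and leaves 1 brachial KO library, assumed to vary like the others. Between levels, 3 members were lower, 0 in Het or KO libraries alone (fewer samples), and 2 to 3 with one library left out, when 0 to 1 was higher. Sema6d lost its call without brachial Het 2 (adjusted p = 0.0517). TPM as deposited moved the median of all genes to 0.161 for brachial genotype, −0.125 for level and −0.166 for the interaction, and brachial calls to 1211 higher and 47 lower (96.3% higher, 71.8% in the main setting, 57.7% with quantile normalization), and level calls to 646 higher and 2214 lower (22.6% higher, 48.1% in the main setting). Over all genes, brachial calls (371 higher, 146 lower) were 250 and 91 with a pseudocount of 1, 510 and 287 with no filter, 241 and 98 with a filter of 2 TPM, 130 and 179 without KO 2 and 3, and 142 to 1046 higher with one library left out (1046 without KO 1). Lumbar calls (163 and 132) were 104 and 77 with a pseudocount of 1, 334 and 288 with no filter and 69 and 66 with a filter of 2 TPM. Level calls (3095) were 488 in Het and 298 in KO libraries alone, and 2005 without brachial KO 2 and 3.

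None of the differences that changed sign was called. Those of Sema6a (−0.47) and Plxna1 (−0.39) in the interaction were not near 0. With TPM as deposited they were 0.10 for Sema6b in brachial genotype, −0.13 for Plxna1 between levels and −0.14 for Sema6b in the interaction. With quantile normalization they were −0.0022 for Sema5a in lumbar genotype and −0.014 for Plxna1 between levels. With coverage Sema6c was at 0.0084 between levels. In Het libraries alone Sema6a was at 0.14, Sema6c at 0.043 and Plxna3 at 0.13 between levels, and in KO libraries alone Plxna1 was at −0.19. Without brachial KO 2 and 3 the brachial genotype difference was 0.0031 for Sema6b and −0.077 for Sema6d, the level difference 0.20 for Sema6a and 0.13 for Plxna3, and the interaction 0.16 for Sema6a, −0.057 for Sema6b, 0.12 for Sema6d and 0.014 for Plxna1. The cause of these changes was not tested.

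With one library left out, differences that could change sign ranged as follows. Between levels they were −0.21 to 0.10 for Sema6a, −0.073 to 0.083 for Sema6c, −0.065 to 0.13 for Plxna1 and −0.099 to 0.029 for Plxna3. In brachial genotype they were −0.15 to 0.028 for Sema6b and −0.0011 to 0.15 for Sema6c. In lumbar genotype they were −0.16 to 0.13 for Sema5a, −0.24 to 0.057 for Sema6b, −0.19 to 0.16 for Sema6c, −0.033 to 0.11 for Sema6d, −0.013 to 0.18 for Plxna1 and −0.091 to 0.13 for Plxna3. In the interaction they were −0.16 to 0.14 for Sema6b, −0.26 to 0.090 for Sema6c and −0.17 to 0.029 for Sema6d. Without a change of sign, the interaction ranged from −0.79 to −0.092 for Sema6a, −0.60 to −0.16 for Plxna1 and −0.24 to −0.014 for Sema5b, each nearest 0 without brachial KO 3.

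With the replicate number as a block, 1 member was higher in brachial KO, 0 passed in lumbar KO, 3 were lower in lumbar cord and 0 differed in the interaction, and no call of a member changed. Over all genes the block moved the level calls from 3095 to 2327. The labels do not say that same-numbered libraries share an embryo. Only some same-numbered pairs deviated together, as did some differently numbered pairs.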
